A study of Mus musculus with 3 samples.

Results

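The histone mark H3K27me3 was examined at 10 mouse genes that hold back the cell cycle: the inhibitors Cdkn1a, Cdkn1b and Cdkn1c, the inhibitors Cdkn2a, Cdkn2b, Cdkn2c and Cdkn2d, and the retinoblastoma family genes Rb1, Rbl1 and Rbl2. They were picked by name, out of 21631 protein-coding genes on chromosomes for which both peak lists hold peaks, and every peak over a gene body or within 20 kb of it was assigned to the gene by position on the mouse build GRCm38. The mark was measured by ChIP-seq, in which an antibody enriches DNA fragments bound to the modified histone, in the kidney of mice of the C57BL/6 strain. Among the 3 samples, 1 H3K27me3 library came from ADA-treated animals, 1 from untreated animals, and 1 was an untreated input without antibody. The file headers give the ChIP libraries inputs of different size, 22100010 (ADA-treated) and 23891586 (untreated) fragments, and the labels do not tell to which of these their input sample belongs. What ADA stands for is not spelled out in the labels. With 1 library per group, no test between the groups was possible. The labels do not say how many mice a library holds. The series title also names mice without SAHH in podocytes, which were not analysed here.

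H3K27me3 is placed by the Polycomb complex PRC2 and is known as a mark of repressed genes. The CIP/KIP proteins p21, p27 and p57, from Cdkn1a, Cdkn1b and Cdkn1c, bind and block complexes of cyclins with cyclin-dependent kinases. The INK4 proteins bind Cdk4 and Cdk6 and keep them from cyclin D. Both groups keep the retinoblastoma proteins unphosphorylated, and in that state these hold E2F transcription factors back from the genes of DNA replication. Cdkn2a encodes p16 from one start and, from a start further upstream, Arf, a protein of another reading frame that restrains Mdm2 and so stabilises p53. The Cdkn2a and Cdkn2b locus is a textbook PRC2 target that loses the mark as cells age, and p16 and p21 are widely used as markers of senescent cells, also in the kidney.

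The promoter sequences that the peaks cover or leave uncovered are shown first, since the results on Cdkn2a, Cdkn2b, Cdkn1a and the retinoblastoma family turn on which annotated start lies under a peak. They are RefSeq sequences on GRCm38.p6, each running 5′ to 3′ from 250 bases before an annotated start to 50 after it. Promoter sequences were at hand for 8 of the 10 genes, all but Cdkn1c and Rb1. In the sequences of Cdkn2a, Cdkn2b, Gm12610 and Cdkn2d, capitals mark CG dinucleotides, since CG-rich promoters are known as preferred sites of PRC2. The Arf window lay wholly under an ADA-treated peak, and the p16 window of the same gene lay under no peak in either list.
Cdkn2a, Arf start, chr4:89294570-89294869, minus strand: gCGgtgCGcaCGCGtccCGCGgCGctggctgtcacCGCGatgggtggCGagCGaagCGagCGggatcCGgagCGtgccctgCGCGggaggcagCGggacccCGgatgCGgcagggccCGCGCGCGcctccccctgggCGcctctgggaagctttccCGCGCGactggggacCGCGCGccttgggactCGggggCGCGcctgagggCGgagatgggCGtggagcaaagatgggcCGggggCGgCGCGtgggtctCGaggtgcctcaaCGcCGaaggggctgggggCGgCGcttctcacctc
Cdkn2a, p16 start, chr4:89282143-89282442, minus strand: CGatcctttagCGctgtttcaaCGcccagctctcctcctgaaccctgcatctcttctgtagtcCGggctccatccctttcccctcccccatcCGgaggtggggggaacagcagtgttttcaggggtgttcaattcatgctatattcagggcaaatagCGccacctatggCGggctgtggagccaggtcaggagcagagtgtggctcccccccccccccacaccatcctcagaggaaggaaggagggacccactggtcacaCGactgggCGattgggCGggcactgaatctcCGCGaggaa
Cdkn2b, p15 start, chr4:89310983-89311282, minus strand: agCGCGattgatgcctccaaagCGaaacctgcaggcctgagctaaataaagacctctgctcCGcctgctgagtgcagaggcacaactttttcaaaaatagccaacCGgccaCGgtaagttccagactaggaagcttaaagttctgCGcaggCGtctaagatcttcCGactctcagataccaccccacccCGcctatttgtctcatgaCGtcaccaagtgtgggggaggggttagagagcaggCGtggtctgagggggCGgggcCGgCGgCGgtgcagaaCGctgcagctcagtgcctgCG
Gm12610, chr4:89294930-89295229, plus strand: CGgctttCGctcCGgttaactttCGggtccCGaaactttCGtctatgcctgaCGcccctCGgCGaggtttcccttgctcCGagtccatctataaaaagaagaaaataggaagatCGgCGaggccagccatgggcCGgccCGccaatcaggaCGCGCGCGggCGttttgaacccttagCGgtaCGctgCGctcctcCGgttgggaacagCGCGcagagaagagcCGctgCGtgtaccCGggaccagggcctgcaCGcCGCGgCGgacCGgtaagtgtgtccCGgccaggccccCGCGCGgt
Cdkn2d, chr9:21291160-21291459, minus strand: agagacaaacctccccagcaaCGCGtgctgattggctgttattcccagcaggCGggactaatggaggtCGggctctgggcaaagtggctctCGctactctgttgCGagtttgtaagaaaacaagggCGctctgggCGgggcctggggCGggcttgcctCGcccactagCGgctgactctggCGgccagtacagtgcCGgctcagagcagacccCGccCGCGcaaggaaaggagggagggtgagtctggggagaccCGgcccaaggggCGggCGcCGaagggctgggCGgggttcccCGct
Arf had 45 CG dinucleotides in its window, p16 12, Cdkn2b 18, the long noncoding RNA gene Gm12610 37 and Cdkn2d 22.

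In the next group of sequences, capitals mark a motif. In the upstream window of Cdkn1a they mark a pair of CATG cores with 6 bases between them, the pattern of a p53 response element, in the downstream window of Cdkn1a the Sp1 box GGGCGG, and in the Rbl1 window an E2F consensus, TTTCGCGC.
Cdkn1a, upstream start, chr17:29090729-29091028, plus strand: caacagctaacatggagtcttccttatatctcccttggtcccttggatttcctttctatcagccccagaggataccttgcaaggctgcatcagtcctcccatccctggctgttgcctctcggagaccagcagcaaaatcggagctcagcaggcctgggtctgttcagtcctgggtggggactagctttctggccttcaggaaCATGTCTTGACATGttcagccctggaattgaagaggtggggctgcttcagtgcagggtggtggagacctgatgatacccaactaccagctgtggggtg
Cdkn1a, downstream start, chr17:29093519-29093818, plus strand: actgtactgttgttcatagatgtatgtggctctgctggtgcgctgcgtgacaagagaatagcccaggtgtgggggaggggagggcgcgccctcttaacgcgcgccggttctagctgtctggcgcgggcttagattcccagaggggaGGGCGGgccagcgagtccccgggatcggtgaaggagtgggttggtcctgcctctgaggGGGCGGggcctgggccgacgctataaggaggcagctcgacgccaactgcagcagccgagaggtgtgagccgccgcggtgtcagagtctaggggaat
Rbl1, chr2:157204485-157204784, minus strand: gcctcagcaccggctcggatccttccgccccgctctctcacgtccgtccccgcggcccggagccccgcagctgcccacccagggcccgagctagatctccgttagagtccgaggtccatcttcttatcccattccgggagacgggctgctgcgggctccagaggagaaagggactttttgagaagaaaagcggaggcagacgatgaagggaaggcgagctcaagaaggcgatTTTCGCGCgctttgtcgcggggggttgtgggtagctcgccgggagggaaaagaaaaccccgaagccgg
On both strands, the p53 pair was present in 0.699% of 21020 promoter windows of protein-coding genes and in 1 of the 11 windows of the 8 genes, 48 bases before the upstream start of Cdkn1a. TTTCGCGC was present in 0.457% of all windows and in the Rbl1 window alone among the 11, 18 bases before the start, and the related letters TTTGGCGC in 0.642% of all windows and in none of the 11. GGGCGG was present in 46.6% of all windows and in 9 of the 11. The match of a motif is a match of letters and not a measured binding site.

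The 2 deposited lists hold broad peaks, each called from 1 library of 20602041 (ADA-treated) or 18849785 (untreated) ChIP fragments. The ADA-treated list has 17612 peaks and the untreated list 8074. The pileup, the number of fragments stacked over a base averaged over the peak, is the authors' own value and serves here to describe and rank peaks within a list. Neither list goes under a pileup of 10, and a gene with no peak may carry the mark at a density under this threshold. In whole kidney, a strong mark in few cells and a weak mark in many cannot be told apart. Peak lists give no expression, so the tissue was not checked against marker genes.

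All 10 genes had an ADA-treated peak within 20 kb or over the body, and 6 had an untreated peak: Cdkn1a, Cdkn1c, Cdkn2a, Cdkn2b, Cdkn2c and Cdkn2d. Cdkn1b, Rb1, Rbl1 and Rbl2 had an ADA-treated peak alone, and no gene of the 10 had an untreated peak alone. By the same rule, 61.7% of all 21631 protein-coding genes had an ADA-treated peak and 39.7% an untreated one, while 24.2% had an ADA-treated peak alone and 2.20% an untreated one alone. Peaks in both lists were found at 37.5% of all genes. Among all genes with an ADA-treated peak, 60.8% also had an untreated one, and 6 of 10 is near that share. The ADA-treated count lay above the share of all genes, but the genes were chosen with results of these data known, and no test was made. Their median length was 7812.5 bp, against 17329 bp over all genes. The part that gene length plays in these counts was not tested.

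The 10 genes had 18 different ADA-treated peaks and 9 untreated ones, as Cdkn2a and Cdkn2b share theirs. The ADA-treated pileups ran from 10.3 to 16.1 with a median of 12.5, against 11.6 over that whole list, and 14 of the 18 lay above the median of the list. The untreated pileups ran from 10, the lowest listed, to 12.5 with a median of 10.7, against 10.7 over that list, and 4 of the 9 lay above it. The caller gave a q of at most 5% to 14 of the 18 ADA-treated peaks and to 0 of the 9 untreated peaks, the smallest untreated q being 7.36%. Over the whole lists this q was reached by 10642 of 17612 ADA-treated and by 518 of 8074 untreated peaks. Each of these 9 untreated peaks is therefore weak by the caller's own measure, as are most peaks of the untreated list. ADA-treated peaks were 377 to 2495 bp long, with a median of 928.5 bp, and untreated peaks 346 to 2505 bp, with a median of 532 bp.

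**Figure D1:**
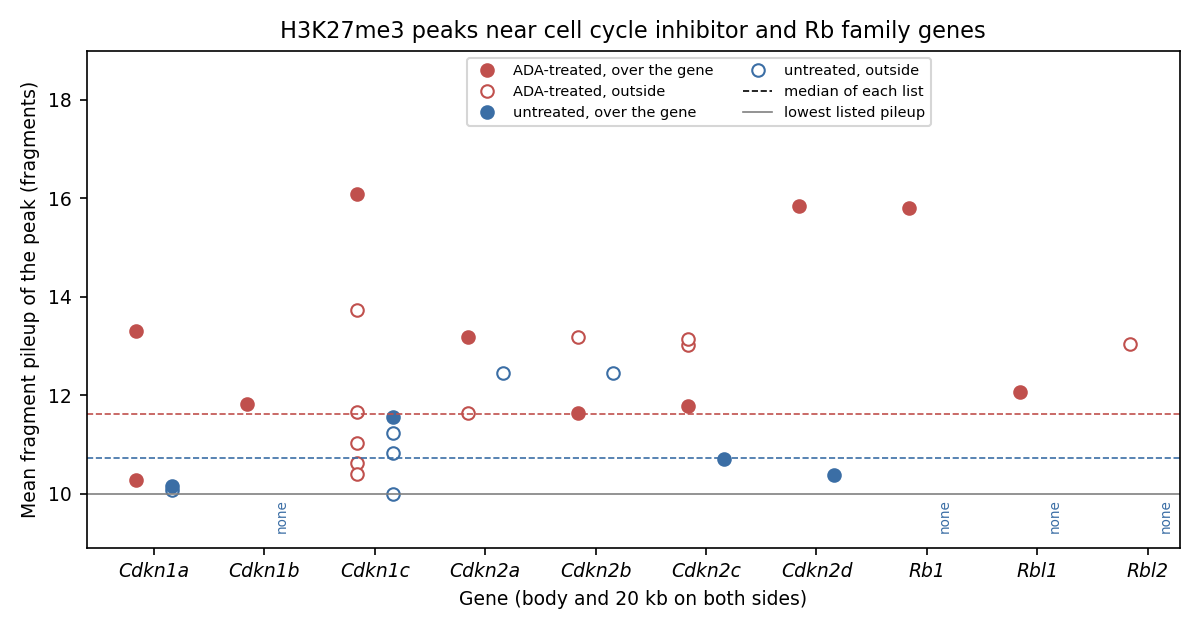
Mean fragment pileup (y axis, fragments) of every H3K27me3 peak over or within 20 kb of each of the 10 genes (x axis), with filled points for peaks over the gene and open points for peaks outside it, the median of each list dashed and the lowest listed pileup as a grey line. ADA-treated peaks reach 16.1 at Cdkn1c and untreated ones 12.5 beside Cdkn2a, and Cdkn1b, Rb1, Rbl1 and Rbl2 have no untreated peak.

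The INK4 locus on chromosome 4 carried short peaks at or beside starts, and no broad domain was listed there. The locus was taken from 20 kb below Cdkn2a (chr4:89274473-89294619) to 20 kb above Cdkn2b (chr4:89306289-89311032), 76560 bp in all. The ADA-treated list held 2 peaks there, covering 1132 bp or 1.48% of it, and the untreated list 1 peak of 694 bp, 0.906% of it. Chromosome 4, up to its last annotated gene, was covered to 0.988% by ADA-treated and to 0.434% by untreated peaks. One further gene is annotated in the locus, the long noncoding RNA gene Gm12610 (chr4:89295180-89518621), which runs in the opposite direction and spans Cdkn2b.

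The Arf start lay under an ADA-treated peak and not under the untreated one. The ADA-treated peak (chr4:89294295-89294993) reached from 324 bp below the start, inside Cdkn2a, to 374 bp above it. Its pileup of 13.2 exceeded that of 72.0% of the peaks of its list. The untreated peak (chr4:89295061-89295754) began 442 bp above the Arf start and contained the start of Gm12610. Its pileup of 12.5 exceeded that of 91.5% of the untreated peaks, and it was the highest of the 9 untreated peaks. The 2 peaks were separated by 67 bp, less than the mean fragment length of either library (293 bp ADA-treated, 321 bp untreated). Of the 300 bases of the Arf window shown above, 300 lay under the ADA-treated peak and 0 under the untreated one. For Gm12610 these were 64 and 169 bases.

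At Cdkn2b, which encodes the Cdk4 and Cdk6 inhibitor p15, a peak was listed in the ADA-treated library alone. This peak (chr4:89310591-89311023) lay inside the gene and ended 9 bp short of the p15 start, with a length of 433 bp and a pileup of 11.6, above 50.4% of its list. It overlapped 41 bases of the p15 window. The untreated peak of the locus counted for Cdkn2b by the 20 kb rule lay 15278 bp from this start. The p16 start had no peak in either list, and the nearest lay 12103 bp (ADA-treated) and 12869 bp (untreated) away. Between the Arf and p15 peaks of the ADA-treated list, 15597 bp held no peak.

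Outside the locus the peaks next in line lay far off and overlapped between the lists. On the lower side they ended 335846 bp (ADA-treated) and 335993 bp (untreated) from the end of Cdkn2a, with pileups of 12.8 and 10.1 and 184 bp in common. On the upper side they began 377267 bp and 377451 bp from the end of Cdkn2b, with pileups of 11.7 and 11.4 and 327 bp in common. The peaks inside the locus shared no base between the lists, but those at Arf lay 67 bp apart, less than a mean fragment length. By the 20 kb rule, 8117 of all genes had peaks in both lists and 6758 had overlapping ones. Peaks without overlap were thus found at other genes too, and whether the locus differs from its flanks was not tested.

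**Figure D2:**
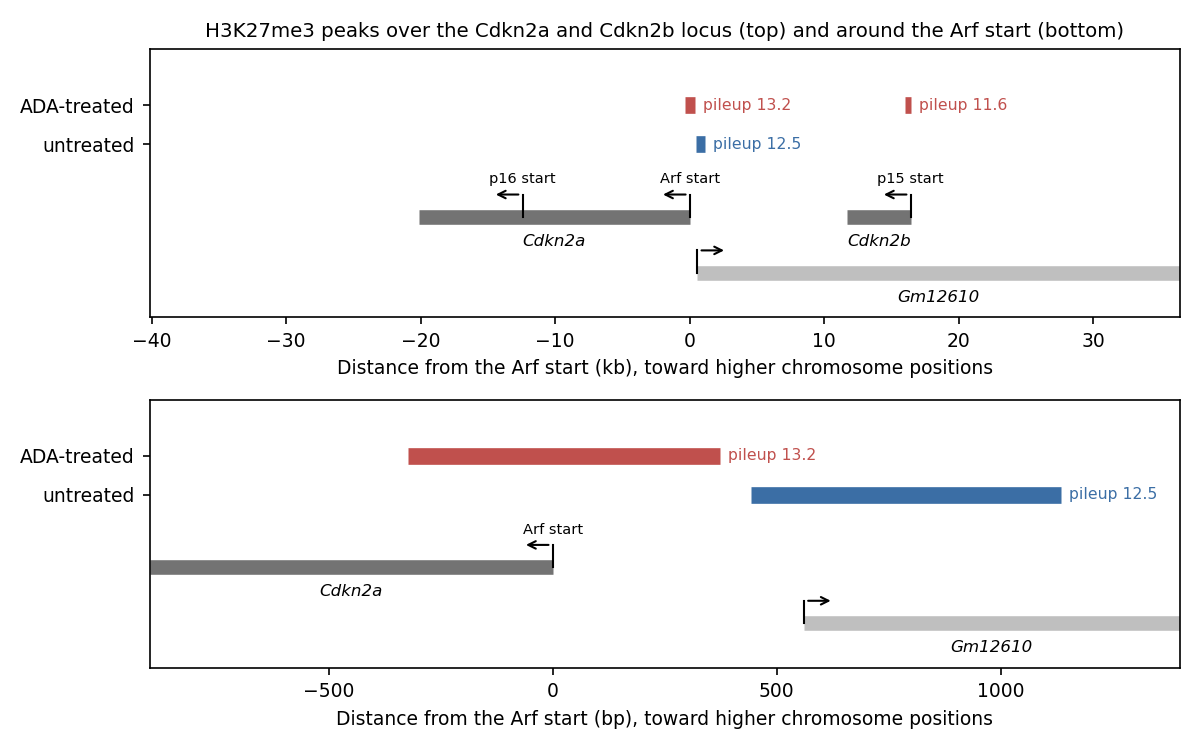
Peaks of both lists over the Cdkn2a and Cdkn2b locus, with distance from the Arf start in kb (top) and in bp around that start (bottom), gene bodies as grey bars and annotated starts as arrows in the direction of transcription. The ADA-treated peaks lie over the Arf start and just inside Cdkn2b, the untreated peak lies 67 bp beside the former over the start of Gm12610, and the p16 start has no peak.

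Cdkn2d and Cdkn2c, the INK4 genes outside this locus, had overlapping peaks in both lists. Cdkn2d (chr9:21288459-21291421) encodes p19Ink4d, which is not the Arf protein. Its start lay inside the peaks of both libraries: the ADA-treated peak (chr9:21290700-21291630) had a pileup of 15.8, above 89.3% of its list, and the untreated peak (chr9:21290984-21291515) one of 10.4, above 31.1% of its list. The untreated peak, 532 bp long, lay wholly inside the ADA-treated one. Among the 11 promoter windows, that of Cdkn2d alone lay under a peak in both lists.

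Cdkn2c (chr4:109660876-109666756), the gene of p18, has an upstream and a downstream annotated start. The upstream one lay inside an ADA-treated peak (chr4:109665881-109667236) with a pileup of 11.8, above 53.4% of its list. The untreated peak (chr4:109665758-109666196) had a pileup of 10.7, above 49.2% of its list, lay between the starts and contained neither. The peaks shared 316 bp, 23.3% of the ADA-treated peak and 72.0% of the untreated one. A pair of further ADA-treated peaks in the Cdkn2c window belonged by place to neighbours. The one with a pileup of 13.2 contained the start of Faf1, 9595 bp from Cdkn2c, and the one with 13.0 lay in the noncoding gene 9630013D21Rik, 95 bp from its nearest start and 3388 bp from Cdkn2c.

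The CIP/KIP genes differed in where their peaks lay. Cdkn1c, the gene of p57, is imprinted and is known in the kidney as a gene of mature podocytes. It had the highest pileup and the most peaks of the 10 genes in the ADA-treated list. Over Cdkn1c (chr7:143458339-143461059) the ADA-treated peak (chr7:143459057-143461551) had a pileup of 16.1, above 90.3% of its list, and the untreated peak (chr7:143458935-143461439) one of 11.6, above 77.5% of its list. These peaks were 2495 and 2505 bp long and shared 2383 bp, 95.5% and 95.1% of their lengths, the closest match among the 5 overlapping pairs. Both ran from inside the gene past its upper end.

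Around Cdkn1c, within 20 kb, lay 5 further ADA-treated peaks with pileups of 10.4 to 13.7 and 3 further untreated ones with pileups of 10 to 11.2. The full lengths of its peaks came to 24.3% (ADA-treated) and 9.64% (untreated) of the length of the Cdkn1c window. At the other 9 genes these values were at most 5.62% and 4.95%. The ADA-treated peak at chr7:143437519-143438631 reaches past the edge of the Cdkn1c window, so the covered share there is lower than 24.3%. The ADA-treated peak with the pileup of 13.7 (chr7:143464747-143466897) and an untreated peak with 11.2 (chr7:143466241-143466752) both contained the annotated starts of the noncoding gene Gm33663, 3688 and 5182 bp from Cdkn1c. The untreated one lay wholly inside the ADA-treated one. The start of Slc22a18, a transporter gene imprinted with Cdkn1c, lay inside an ADA-treated peak with a pileup of 10.4, and the untreated peak in that gene (pileup 10.8) lay 3379 bp from the start.

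At Cdkn1a (chr17:29090979-29100722), the p53 target gene of p21, the peaks of both lists lay around or behind the downstream start and left the upstream start with the p53 pair uncovered. The untreated peak (chr17:29093424-29095540) contained the downstream start and all 300 bases of its window, with a pileup of 10.2, above 19.2% of its list. The ADA-treated peak (chr17:29094364-29096784) began 595 bp past that start and had a pileup of 13.3, above 73.2% of its list. They shared 1177 bp, 48.6% of the ADA-treated peak and 55.6% of the untreated one. A short ADA-treated peak with a pileup of 10.3 lay further inside the gene, 4743 bp past the start. An untreated peak with a pileup of 10.1 lay 18548 bp upstream in Trp53cor1, the gene of the noncoding RNA lincRNA-p21.

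Cdkn1b (chr6:134920401-134925525), the gene of p27, had 1 ADA-treated peak (chr6:134919981-134921089) and no untreated one. The peak contained the start and its whole 300-base window, with a pileup of 11.8, above 53.8% of its list.

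No untreated peak was listed within 20 kb of any of the 3 retinoblastoma family genes, and each had 1 ADA-treated peak. For Rb1 (chr14:73192858-73325951), the founding tumour suppressor of the family, the peak (chr14:73325370-73326117) lay across the upper gene end, with a pileup of 15.8, above 89.1% of its list. For Rbl1 (chr2:157145893-157204534), which encodes p107, the peak (chr2:157204075-157204873) contained the start and the whole window with the E2F consensus shown above, with a pileup of 12.1, above 57.9% of its list. For Rbl2 (chr8:91070057-91123844), which encodes p130, the peak (chr8:91133471-91134396, pileup 13.1) lay 9627 bp outside the gene, 63414 bp from the Rbl2 start. It contained 2 of the 3 annotated starts of the neighbouring gene Aktip, so Rbl2 counted only by the 20 kb rule. With 3 genes and a background of 39.7%, the lack of untreated peaks is a description of this list and was not tested.

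**Figure D3:**
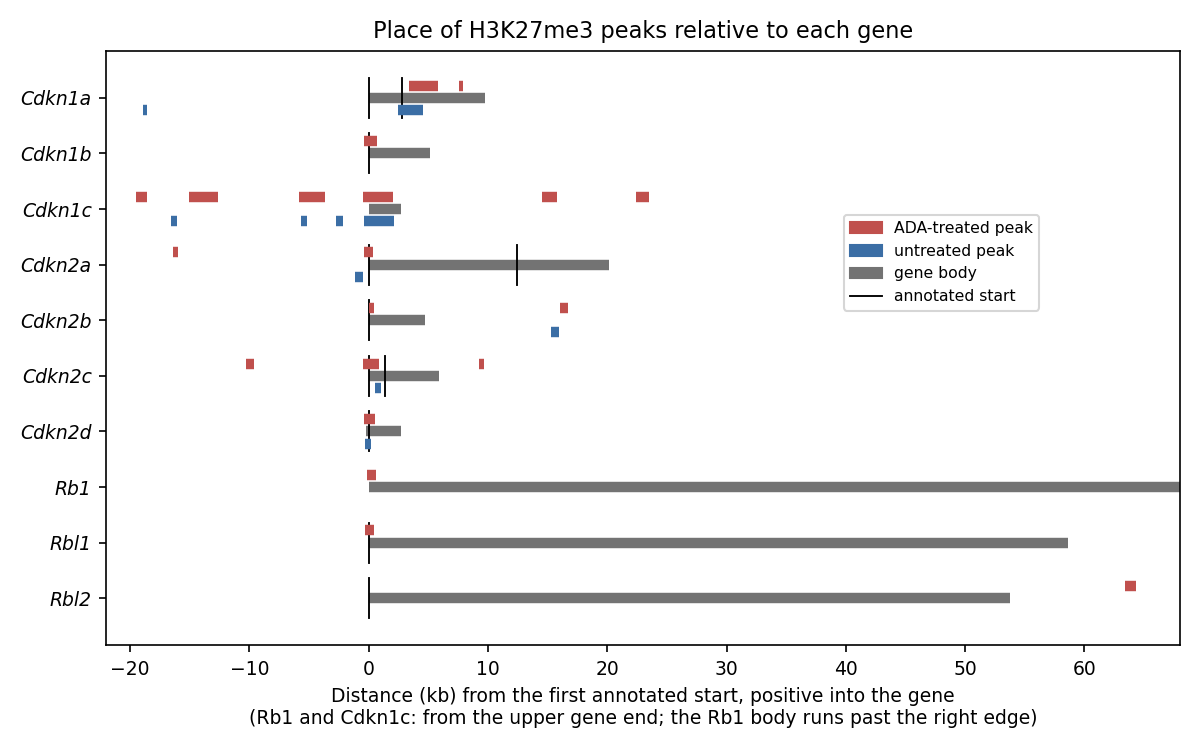
Place of ADA-treated peaks (above each gene body) and untreated peaks (under it) in kb from the first annotated start, positive into the gene, for each of the 10 genes; Rb1 and Cdkn1c are drawn from the upper gene end. An ADA-treated peak lies over the body of each gene but Rbl2, whose peak is 63414 bp from its start. The p16 start inside Cdkn2a, the upstream start of Cdkn1a and the downstream start of Cdkn2c lie under no peak of either list. Neither do the Rbl2 start and the p15 start of Cdkn2b, the latter 9 bp beyond the end of an ADA-treated peak.

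Narrower rules kept 9 of the 10 genes in the ADA-treated list. A peak lay over the body of 9 genes (49.3% of all genes by this rule), all but Rbl2, and of 4 genes in the untreated list (25.6% of all genes), Cdkn1a, Cdkn1c, Cdkn2c and Cdkn2d. Within 2 kb of a gene end, the counts were 9 (47.0% of all genes) and 4 (23.0% of all genes). Peaks of the 2 lists overlapped at 4 genes under the 20 kb rule (31.2% of all genes), Cdkn1a, Cdkn1c, Cdkn2c and Cdkn2d. At the remaining 2 of the 6 genes with peaks in both lists, Cdkn2a and Cdkn2b, which share 1 untreated peak, the peaks lay apart. Over all genes, 8117 (37.5%) had peaks in both lists and 6758 (31.2%) had overlapping ones. By family, untreated peaks within 20 kb were listed at 2 of 3 CIP/KIP genes, 4 of 4 INK4 genes, where 1 peak counts for both Cdkn2a and Cdkn2b, and 0 of 3 retinoblastoma genes, against 39.7% of all genes. Over the body these counts were 2, 2 and 0, against 25.6% of all genes.

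**Figure D4:**
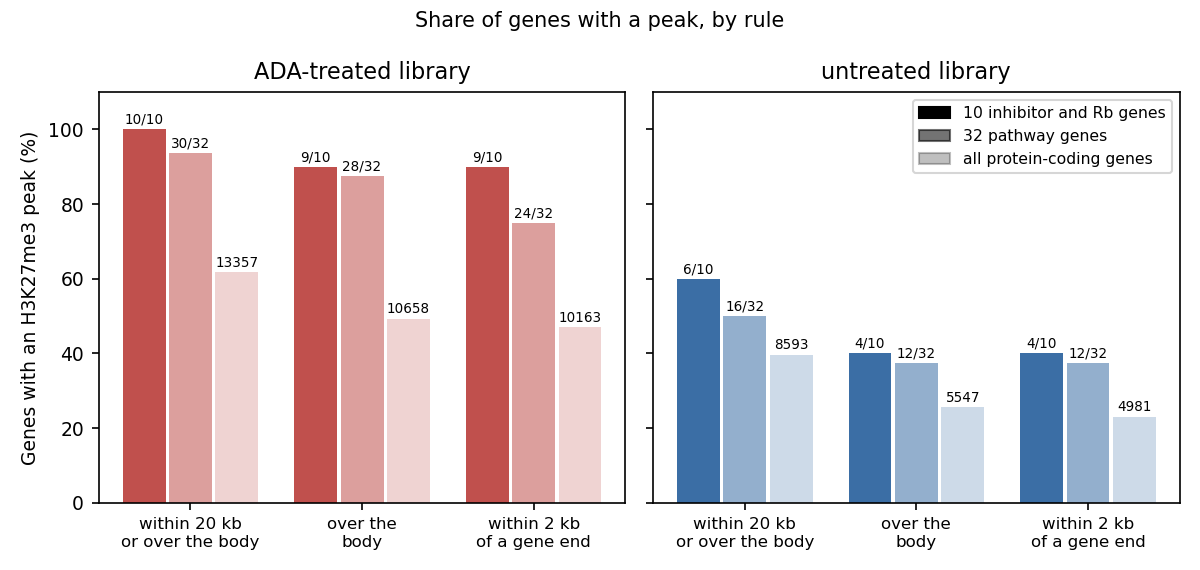
Share of genes with a peak (y axis, %) under 3 rules (x axis) in the ADA-treated (left) and the untreated library (right), for the 10 genes, the 32 genes of the pathway and all 21631 protein-coding genes, with the counts above the bars. With 1 library per group the bars carry no replicate error; in the ADA-treated library the 10 genes reach 100% within 20 kb, against 61.7% of all genes.

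Each promoter window overlapped by an ADA-treated peak was rich in CG dinucleotides, although a pair of CG-rich windows, those of Rbl2 and the downstream start of Cdkn1a, had no such peak. The CpG ratio compares the CG dinucleotides of a window with the number its C and G content would give. The 11 windows of the 8 genes had a median ratio of 0.727, against 0.574 over 21020 windows. A ratio of 0.6 was reached by 8 of the 11 and by 10115 of the 21020 windows. An ADA-treated peak overlapped 6 of the 11 windows (37.9% of all windows), and the ratios of these 6 started at 0.681 and reached 1.04 at Arf and Cdkn1b. The 5 windows without an ADA-treated peak had ratios of 0.0892 (Cdkn1a, upstream), 0.442 (p16), 0.553 (Cdkn2c, downstream), 0.727 (Rbl2) and 0.786 (Cdkn1a, downstream). An untreated peak overlapped 2 of the 11 windows (14.4% of all windows), those of Cdkn2d and the downstream start of Cdkn1a.

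Over all windows with a CpG ratio of at least 0.6, 66.2% had an ADA-treated peak and 26.2% an untreated one, and under 0.6 these shares were 11.6% and 3.47%. Windows with ratios from 0.6 up to 0.8, where those of Cdkn2b, Cdkn2d, Rbl2 and the downstream start of Cdkn1a lay, had an ADA-treated peak in 56.2% and an untreated one in 18.4%. In the range of Arf and Cdkn1b, from 1 up to 1.2, these shares were 78.8% and 38.5%. The part that base composition plays in the difference between windows was not tested.

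**Figure D5:**
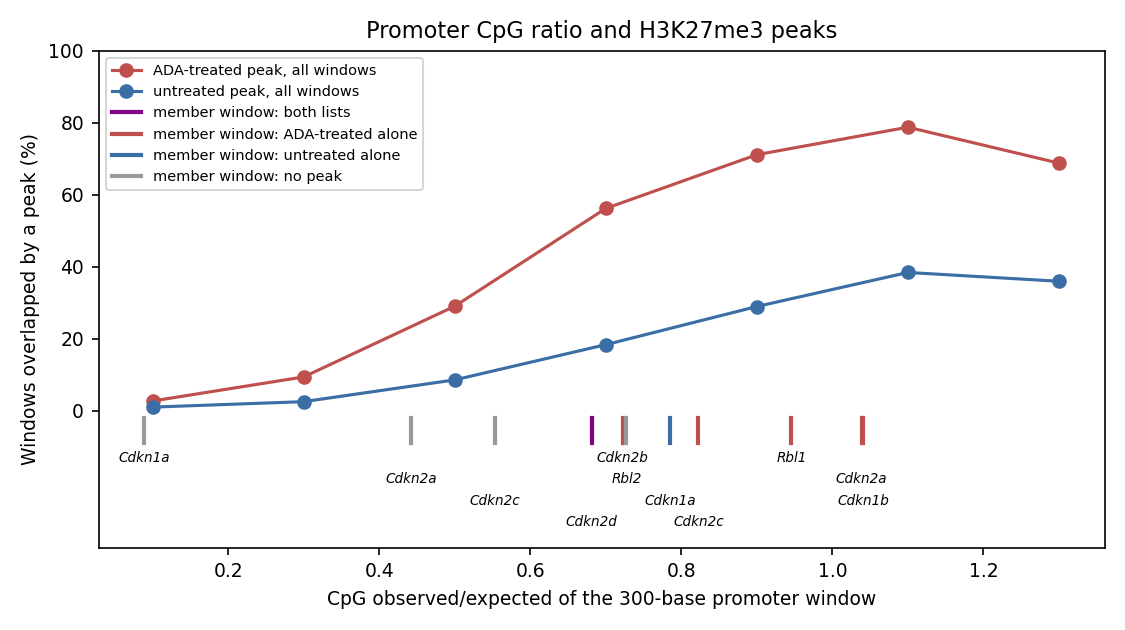
Share of all 300-base promoter windows overlapped by a peak of each list (y axis, %) by CpG ratio (x axis, observed over expected, in bins of 0.2 with all ratios of 1.2 or more in the last), with a tick under the axis for each of the 11 windows, coloured by the list whose peak overlaps it. The shares rise to 78.8% and 38.5% between ratios of 1 and 1.2 and are lower, 68.8% and 36%, in the last bin of 125 windows. The ticks of the upstream Cdkn1a start and of p16 (the left one of the Cdkn2a ticks) lie at low ratios without a peak.

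Peaks were also listed at most partners of these genes in the passage from G1 to S phase. Of 32 genes on a list of such partners, 30 had an ADA-treated peak within 20 kb or over the body (61.7% of all genes) and 16 an untreated one (39.7% of all genes), 15 had both (37.5% of all genes) and 12 had overlapping peaks (31.2% of all genes). Cyclins and kinases had an ADA-treated peak in 11 of 12 genes and an untreated one in 7, E2F and DP factors in 9 and 6 of 10, the MuvB, MYB and FOXM1 factors in 6 and 2 of 6, and the regulators Trp53, Mdm2, Skp2 and Cks1b in 4 and 1 of 4. With counts this small, the groups were not compared by a test.

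Ranked by their highest pileup, the first genes with peaks in both lists were Cdk4, Foxm1, Ccnd3, Ccne1 and E2f8. Cdk4, the kinase that INK4 proteins bind, had an ADA-treated pileup of 21.4, but that peak lay 11853 bp outside the gene in Agap2, and its highest untreated peak, with 11.3, lay over the lower gene end. Foxm1, a transcription factor of mitotic genes, had 20.6 (ADA-treated) and 11.5 (untreated) in peaks across its lower end, which also overlap Rhno1. The cyclin E gene Ccne1 had 20.1 and 11.7 at its upper end, in overlapping peaks. The cyclin D gene Ccnd3 had 20.5 in a peak 2707 bp outside the gene, over Taf8, and 12.1 inside the gene. The E2F family repressor E2f8 had 17.2 and, in a peak that did not overlap, 10.1.

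Genes with an ADA-treated peak alone were led by Tfdp1, the dimer partner of E2F factors, with a pileup of 19.1, followed by Ccne2 (17.6), Mdm2, the ubiquitin ligase of p53 (16.1), E2f5 (15.4) and E2f3 (15.0). All 5 of these peaks lay over the gene. Ccna2, a cyclin A gene, was the single gene with an untreated peak alone, inside the gene with a pileup of 10.6. E2f6, named after its values were seen, had no peak in either list.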

How the data were processed

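MACS 2.1.2 was run by the authors on each ChIP library and its own input, calling broad regions at a p of 0.001 without a local background, per the file headers. The deposited signal (pileup) is averaged over the peak. A constant background of 3.24 fragments underlies the deposited fold in both lists. The fold was used only to derive this background and to break ties. The authors' caller also wrote −log10 p and −log10 q values. Its header announces no q, and the listed q is used as deposited. For the aligner, the sources used here give no name, and no stated step scales the libraries to each other.

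The submitters' processing notes name mm9, but the peaks sit on GRCm38. Of 21020 promoter windows on that build, 37.9% and 14.4% had an ADA-treated and an untreated peak, against 2.43% and 0.990% when shifted down by 10 kb and 2.60% and 0.909% when shifted up. Coordinates are 1-based. Gene positions and sequences are from RefSeq, GRCm38.p6, with mitochondrial and Y chromosome genes left out.

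Peaks were assigned to genes with Python 3.11.15, numpy 2.4.6 and pandas 2.3.3, with a minimum overlap of 1 bp between lists, and plotted with matplotlib 3.10.9. The counting was tested on simulated peaks of both lists at 642 genes of chromosome 1, where 321 of 321 planted ADA-treated peaks and 160 of 160 planted overlaps were recovered. All members were described; of the 32 pathway genes, up to 5 per class with the highest pileup were named. The members, lists and rules were chosen with earlier results of these data known. Alternatives were narrower windows, stricter peaks, lists of equal length and stricter overlap.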

Additional observations from a re-analysis of the deposited data

How the results depend on the processing

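Of 56 counts under alternative settings, 36 stayed within 1.5 times the reported count. Stricter peaks removed the untreated ones. With a deposited q of at most 5%, 0 genes had an untreated peak, 0 had peaks in both lists and 0 overlapping ones, 0 untreated peaks were left in the Cdkn2a and Cdkn2b locus and 0 near the 10 genes, and 2 pathway genes kept an untreated peak (4.25% of all genes). With a pileup of at least 12, untreated peaks were left at 2 of the 10 genes, Cdkn2a and Cdkn2b, which share 1 peak, and at 4 pathway genes (9.10% of all genes), 2 genes had peaks in both lists and 0 overlapping ones, the locus held 1 ADA-treated peak, and 10 ADA-treated and 1 untreated peak lay near the genes. ADA-treated peaks were listed at 10 genes under the q limit (53.5% of all genes) and at 9 under the pileup limit (45.7% of all genes). With the ADA-treated list reduced to the length of the untreated one, 11 ADA-treated peaks lay near the genes and 1 in the locus, and 9 genes had an ADA-treated peak (47.1% of all genes). Over the gene body alone there were 10 ADA-treated and 4 untreated peaks, and within 2 kb of a gene end 9 and 4. An overlap of at least 50% of both peaks was reached at 2 genes. No share over all genes is given for this rule. The same holds for peaks in both lists and overlapping ones under the q and pileup limits. These counts are therefore not set against a background. No paired analysis was possible because each group has 1 library.

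Both lists share the lowest pileup of 10 and a background of 3.24 fragments. The lowest deposited −log10 q differed, 0.769 in the ADA-treated and 0.257 in the untreated list. The part that the threshold plays in the number of peaks was not tested. The background is a constant along the genome, so copy number and open chromatin at these promoters are not corrected for.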
